A study of Homo sapiens with 5 samples.

Results

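Peaks of RNA retrieved with the long noncoding RNA SNHG5 are described here where the peak summit fell in the coding sequence of an mRNA. Members were chosen by position alone: the summit had to lie in the coding part of any GENCODE basic transcript on hg19, and coding sequence took priority over every other annotation. By this rule 2108 of the 9531 peaks in both lists were coding. They were 289 Odd peaks, 31.9% of that list, and 1819 Even peaks, 21.1% of the longer Even list. To compare lists of equal length, as many Even peaks as the Odd list holds were taken by smallest p-value. Of these best Even peaks 259 were coding (28.6%).

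RIA-seq (RNA interactome analysis and sequencing) pulls an RNA out of cross-linked cells with biotinylated antisense DNA oligonucleotides and sequences the RNA that comes with it. Cells of the human colorectal carcinoma line HCT116 were cross-linked with glutaraldehyde, and total lysates were hybridized to alternating sets of oligonucleotides against SNHG5, named Odd and Even. The data comprise 2 Odd libraries pooled by the authors, 1 Even library and 2 control libraries, which the sample labels call INPUT while the methods describe the reference as a luciferase oligonucleotide pool. Since 1 list was deposited per pool, no value has a replicate error, and the intervals given are 95% Wilson intervals or intervals of a median over peaks that cover counting error only.

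SNHG5 is the spliced host transcript of small nucleolar RNAs and is found mainly in the cytoplasm. Coding exons are joined in the mature mRNA, so RNA that lies close together in a cytoplasmic mRNA can map far apart on the genome. An oligonucleotide complementary to SNHG5 can also pair with any mRNA stretch that has the same letters as SNHG5, called a sense match here. A complementary match is a stretch that could itself pair with SNHG5. A match is a description of letters, not a site or a cause, and whether the oligonucleotides bound these mRNAs directly was not tested.

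The peak caller MACS read 150214135 Odd tags, 55933565 Even tags and 114945178 control tags. After duplicates were limited to 3 tags per position in Odd and 2 in Even, it used 4904959, 1965614 and 3986040 of them, and it multiplied the Even pileup by 2.03. Pileup is the number of extended tags over the summit, and it can therefore not pass about 1560 in the Odd list or 2352 in the Even list. Fold enrichment is that pileup divided by the local control background.

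Sequences at coding peaks are printed to show which letters of SNHG5 they share, for exons with long sense matches or with the runs that recurred most. They were chosen after the matches were seen. Each is read 5′ to 3′ on the strand of the gene from GRCh37, with the run shared with SNHG5 in capitals. Odd examples came from NTN4, a secreted netrin, VCAN, an extracellular matrix proteoglycan, and IFT140, a subunit of the transport machinery of cilia.
NTN4 exon 10, chr12:96057366-96057395, minus strand: ccaaagAAAGCTGATAAGAAAACtgaaacc
VCAN exon 8, chr5:82835053-82835082, plus strand: agtaaaggTCAGTGGCACAGTttcaacaaa
IFT140 exon 11, chr16:1634375-1634404, minus strand: cctgctggCAGTGAACAGCGTcatctccgt

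Even examples came from YEATS2, a histone reader of an acetyltransferase complex, KDM4C, a histone lysine demethylase, API5, an inhibitor of apoptosis, PPP1CA, a catalytic subunit of protein phosphatase 1, and MAST3, a serine/threonine kinase. None of these runs shares an SNHG5 position with the Odd runs above.
YEATS2 exon 28, chr3:183524764-183524793, plus strand: ctctccgAGCCAGTGAAGATAAacatcaag
KDM4C exon 3, chr9:6805711-6805740, plus strand: agtacaaCATCCAGAAAAAAGCgatgactg
API5 exon 13, chr11:43357409-43357438, plus strand: caaaagagAGCCAGTGAAGATAcaacttca
PPP1CA exon 6, chr11:67166206-67166235, minus strand: cgccatgaTGAGTGTGGACGAGaccctcat
MAST3 exon 4, chr19:18232513-18232542, plus strand: caagagcttGGTGGTAGGAACgccctcccc

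The same runs, and the run near position 300 that recurred most at Odd peaks, stand in SNHG5 transcript ENST00000414002, which has 6 exons and 451 nt and is read from the minus strand of chromosome 6. Positions are counted from 1 at its 5′ end, and capitals again mark the run.
SNHG5 38 to 67: cgtctgggcgGGTGGTAGGAACaatggcgc
SNHG5 63 to 92: ggcgctgtctTCAGTGGCACAGTggagcag
SNHG5 175 to 204: acacttttaaCAGTGAACAGCGTtctgagt
SNHG5 190 to 219: aacagcgttcTGAGTGTGGACGAGtagcca
SNHG5 205 to 234: gtggacgagtAGCCAGTGAAGATAAtgaat
SNHG5 288 to 317: gcccattgatAGAGGCCAGATTGtcttgga
SNHG5 368 to 397: tgttgtgtgaAAAGCTGATAAGAAAACcat
SNHG5 385 to 414: ataagaaaacCATCCAGAAAAAAGCtcttc

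Sense runs were more frequent at the coding peaks of both pools than at coding exons in general. In genomic windows that reached 250 bases to either side of the summit, an exact sense run of at least 10 bases was present at 138 of 289 Odd coding peaks (47.8%, 95% interval 42.1% to 53.5%) and at 105 of 259 best Even coding peaks (40.5%, 34.7% to 46.6%). Across the same windows centred on all 197611 annotated coding exons the share was 21.5%. Complementary runs of that length were present at 32.5% of Odd and 21.6% of best Even coding peaks, beside 21.5% of coding exons. For best Even peaks only the sense share therefore lay apart from that of exons, whereas in Odd both directions did.

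Longer runs gave the same order. A sense run of at least 12 bases was found at 38 Odd coding peaks (13.1%) and at 25 best Even coding peaks (9.65%), against 1.64% of coding exons. The complementary shares were 4.50%, 1.93% and 1.78%. Such runs were not particular to coding peaks. Counted in either direction, runs of at least 12 bases were found at 17.3% of Odd and 11.2% of best Even coding peaks. The shares were 22.2% and 29.7% in 3′UTRs and 50.7% and 40.2% in introns. In 5′UTRs, with 18 peaks per list, they were 16.7% and 11.1%, and for coding exons 3.40%. Windows centred on coding peaks had a median GC content of 42.9% in Odd and 44.7% in best Even, beside 46.9% for coding exons, and the part of base composition in these shares was not tested. When the window followed the spliced mRNA instead of the genome, which was chosen after the data had been seen, the sense share of runs of at least 10 bases was 63.7% for Odd and 60.6% for best Even, and 22.8% for coding exons.

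**Figure D1:**
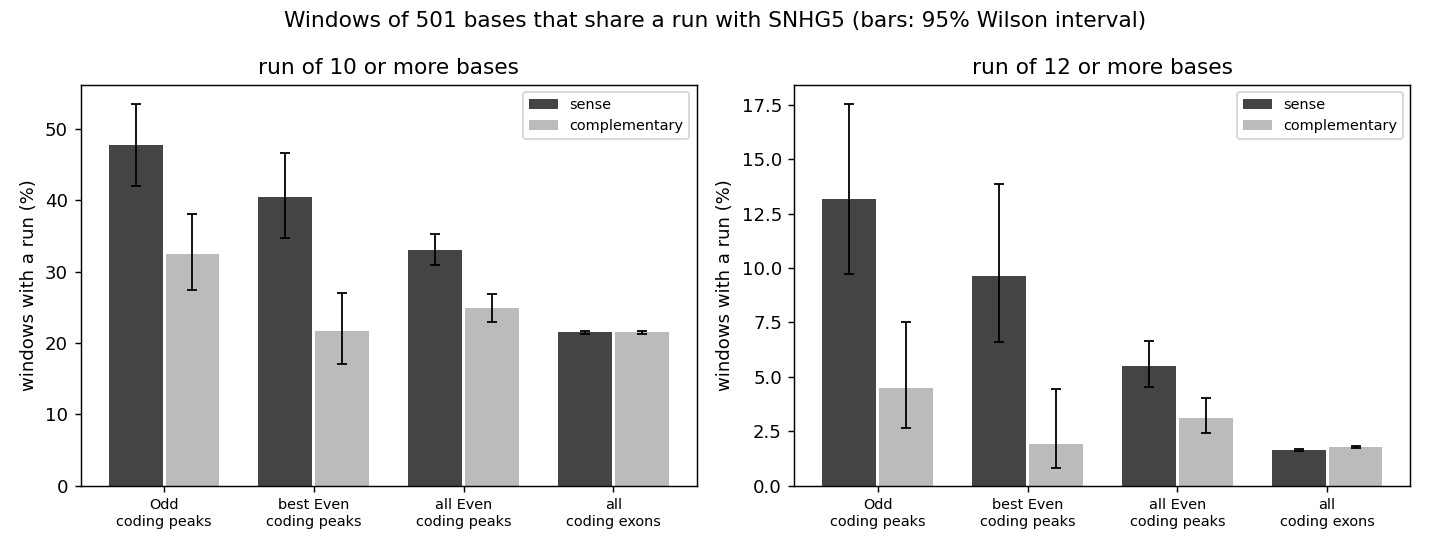
Share of windows, 250 bases to either side of the summit or exon centre (y axis, %), that share an exact run of at least 10 bases (left) or 12 bases (right) with SNHG5, for coding peaks of each list and for all coding exons. Dark bars are sense and light bars complementary runs, and error bars are 95% Wilson intervals. The dark bars of the Odd and best Even coding peaks stand above those of all coding exons at both lengths.

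Sense runs of at least 10 bases also lay nearer to the summit than complementary runs. The longest sense run of a window lay a median of 43 bases from the Odd summit, with 53.6% of runs within 50 bases, and the longest complementary run a median of 121 bases, with 24.5% within 50. The corresponding medians in best Even were 71 and 129 bases. For runs of at least 12 bases the medians were 26.5 bases for sense and 37 for 13 complementary runs in Odd, but 51 for sense and 27 for only 5 complementary runs in best Even. Of the Odd sense runs 76.1% were wholly inside an exon, and exons made up a mean of 47.3% of the window (median 37.1%). In best Even the runs were inside an exon in 67.6%, beside a mean of 41.8% (median 35.7%). Complementary runs were inside an exon in 54.3% of Odd and 46.4% of best Even cases.

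The SNHG5 letters found most often differed between the pools, though some stretches were found in both. Within the 138 matched Odd windows, the midpoint of the longest run lay at SNHG5 positions 301 to 320 in 32 windows, at 381 to 400 in 21, at 61 to 100 in 25, at 181 to 200 in 11 and at 261 to 280 in 9. It also lay at 201 to 240 in 11 Odd windows and at 41 to 60 in 1. Within the 105 matched best Even windows it lay at positions 201 to 240 in 30 windows and at 41 to 60 in 11. It lay at 301 to 320 in 10, at 61 to 100 in 8, and at 261 to 280 and 381 to 400 in 6 each. At 181 to 200 it lay in 1 best Even window. The sequence AGAGGCCAGA, positions 298 to 307 of SNHG5, was present in 22 Odd windows (7.61%) and in 5 best Even windows (1.93%), and in 0.168% of coding exon windows. GTGGCACAGT was present in 10 Odd windows and CAGTGAACAG in 9, and neither in any best Even window. A count of 0 there allows a share of up to 1.16%, taken, as for every count of 0 here, as 3 counts of the total. GAGTGTGGAC was present in 11 best Even windows (4.25%) and GCCAGTGAAG in 8, beside 0.0683% and 0.111% of coding exon windows, and neither in any Odd window, which allows up to 1.04%. These sequences were searched on the strand of the gene, overlap partly with one another, and are the runs that recurred most.

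Overlap between the pools differed between stretches of SNHG5 letters, but was similar for Odd coding peaks with and without a sense run. An Even peak overlapped 90 of 289 Odd coding peaks (31.1%, 26.1% to 36.7%), beside 39.8% of the whole Odd list. Among the Odd coding peaks matched at positions 301 to 320, 22 of 32 were overlapped (68.8%, 51.4% to 82.0%), and these lay in 21 genes. At positions 261 to 280, 6 of 9 were. At positions 61 to 100 only 2 of 25 were overlapped (8%, 2.22% to 24.97%), at 381 to 400 only 2 of 21 and at 181 to 200 only 1 of 11. At 201 to 240, 2 of 11 were overlapped. Odd coding peaks with no sense run of 10 bases were overlapped in 48 of 151 cases (31.8%), and all those with such a run in 42 of 138 (30.4%). The stretches were chosen after their values had been seen, and no test was made.

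Counted from the best Even coding peaks the split was similar, but this recounts in part the same overlapping pairs. Of the best Even coding peaks matched at positions 301 to 320, 8 of 10 were overlapped by an Odd peak (80.0%, 49.0% to 94.3%). The genes of these 8 were all among the overlapped Odd genes at that stretch. At 201 to 240, 1 of 30 was overlapped (3.33%, 0.591% to 16.7%), at 61 to 100 1 of 8 and at 261 to 280 3 of 6. At 41 to 60 it was 0 of 11, which allows a share of up to 27.3%, and at 381 to 400 0 of 6, which allows up to 50%. Median fold enrichment did not follow this split: it was 12.6 for Odd coding peaks matched at 301 to 320, 13.23 at 61 to 100 and 18.04 at 381 to 400.

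Few coding genes were reached by both pools. The Odd coding peaks fell in 206 genes, 1.02% of 20176 annotated protein-coding genes, and the best Even coding peaks in 160 genes, 0.793%. Both lists had 16 genes in common, 7.77% of the Odd and 10.0% of the best Even genes. With all 1338 genes of the Even coding peaks the number was 77, which is 37.4% of the Odd genes and 5.75% of the Even genes. In 4 Odd and 9 best Even peaks the summit lay in the coding sequence of more than 1 gene.

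Most genes had a single coding peak. In the Odd list 157 genes had 1 peak, 30 had 2 and 19 had 3 or more, and in best Even 104, 30 and 26 did. Peaks in genes with at least 2 made up 45.7% of the Odd and 59.8% of the best Even coding peaks. At least 2 exons were hit in 48 Odd genes (23.3%) and in 56 best Even genes (35.0%). The list length was the same, so the best Even coding peaks were spread over fewer genes with more exons each.

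Peaks of a gene tended to sit in neighbouring exons, which are numbered here along the whole transcript, untranslated exons included. Of the Odd coding peaks 116 (40.1%) had another Odd peak in the next coding exon to either side, and of the best Even coding peaks 135 (52.1%) had one. Unbroken runs of at least 4 exons occurred in 6 Odd and 8 best Even genes, with up to 8 exons in a row in each list. In 5 of those 6 and 6 of those 8 the pileup rose to a single highest exon and fell from it. In genes with at least 2 peaks placed in the same transcript, the first and last summit were a median of 128 nt apart along the Odd mRNA but 3503.5 bases apart on the genome. These spans covered a median of 6.405% of the coding sequence. In best Even the medians were 161 nt, 3672.5 bases and 6.74%. Neighbouring peaks of a gene share 1 mRNA and are not independent of each other.

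SPATS2, predicted to be a cytoplasmic RNA-binding protein, had the most coding peaks in both lists, 10 in Odd and 9 among the best Even. In the whole Even list, from which all Even pileups by exon are taken here, each of its 12 coding exons had a peak. The Odd pileup at the summit was 72 in exon 4, 103 in exon 5, 119 in exon 7, 184 in exon 8, 286 in exon 9, 148 in exon 10, 243 in exon 11, 232 in exon 12, 650 in exon 13 and 1313 in exon 14. The Even pileup in the same exons was 68, 95, 143, 170, 275, 137, 231, 283, 732 and 1608, and Even also had peaks of 119 in exon 3 and 44 in exon 6. An Odd peak overlapped the Even peak of exon 3, but its summit lay outside coding sequence. No Odd peak overlapped that of exon 6. The pileup was highest in the last exon and second highest in exon 13 in both lists, and it did not rise at every exon before. Exon 10, of 59 bases, had the highest fold enrichment of the gene, 30.07 in Odd and 34.47 in Even, whereas exon 14 had 8.89 and 11.25. The peak in exon 14 spanned chr12:49919537-49921225 in the Odd list.

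Among the 10 genes with most Odd coding peaks, 3 others also had at least 3 coding peaks among the best Even. PITRM1, a protease of the mitochondrial matrix, had pileups of 288, 495, 268 and 129 in exons 13 to 16 in Odd and of 164, 322, 174 and 68 in Even, highest in exon 14 and lowest in exon 16 in both. LRPPRC, which stabilizes mitochondrial mRNAs, had 136, 219, 342 and 513 in exons 25 to 28 in Odd and 75, 180, 200 and 360 in Even. CASC3, a core protein of the exon junction complex, had 685, 674 and 643 in exons 5 to 7 in Odd, and 358, 383 and 121 in Even. The order of the exons was the same in both lists for LRPPRC, while exons 13 and 15 of PITRM1 and exons 5 and 6 of CASC3 changed places.

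Other runs came mainly from the Odd list. GLDN, gliomedin, a protein of the nodes of Ranvier, had Odd pileups of 54, 147, 306 and 528 in exons 4 to 7, 105 in exon 9 and 59 in exon 10. The only Even coding peak of GLDN was in exon 10, with a pileup of 24. EML4, a microtubule-binding protein, had 85, 132, 64 and 53 in exons 17 to 20 in Odd and no Even coding peak. SLC27A2, an acyl-CoA synthetase of very long-chain fatty acids, had 60, 113, 125 and 23 in exons 7 to 10 in Odd and 22, 32 and 20 in exons 8 to 10 in Even. CANX, a chaperone of the endoplasmic reticulum, had Odd pileups of 206, 715 and 512 in exons 6 to 8, and NUP188, a nuclear pore protein, 177, 291 and 229 in exons 19 to 21, and neither had an Even coding peak. PEBP1, an inhibitor of Raf kinase, had 172, 266 and 268 in exons 2 to 4 of its 4 exons and none in Even.

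Other runs came from the Even list alone. The Odd list had been filtered for reproducibility and the Even list had not. Every Odd peak had a −log10 p-value of at least 26.74, and weak Even peaks given here, such as KDM4C exon 7 with 12.52, fell below that. YEATS2 had Even pileups of 553, 928, 283, 202 and 263 in exons 27 to 31, after 48 in exon 26 and 30 in exon 25. KDM4C had 389, 663, 312 and 129 in exons 2 to 5 and 14 to 26 in exons 6 to 11. PTK2, the focal adhesion kinase, rose to 703 in exon 25, between 204 in exon 24 and 304 in exon 26, within a run from exon 19 (26) to exon 28 (87). CSNK2A2, a catalytic subunit of casein kinase 2, had 56, 162, 287, 109, 91, 77 and 73 in exons 1 to 7. None of these 4 genes had an Odd coding peak. The same held for AIFM1, a mitochondrial flavoprotein, with 85, 162, 168 and 119 in exons 7 to 10, for CENPH, a kinetochore protein, with 146, 111, 111 and 64 in exons 1 to 4, and for AGPS, an enzyme of plasmalogen synthesis, with 79, 89, 121, 89 and 46 in exons 5 to 9. SUPT5H, a transcription elongation factor, had its highest pileup, 878, in exon 18, and AARS1, the alanyl-tRNA synthetase, 539 in exon 12, again with no Odd coding peak.

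**Figure D2:**
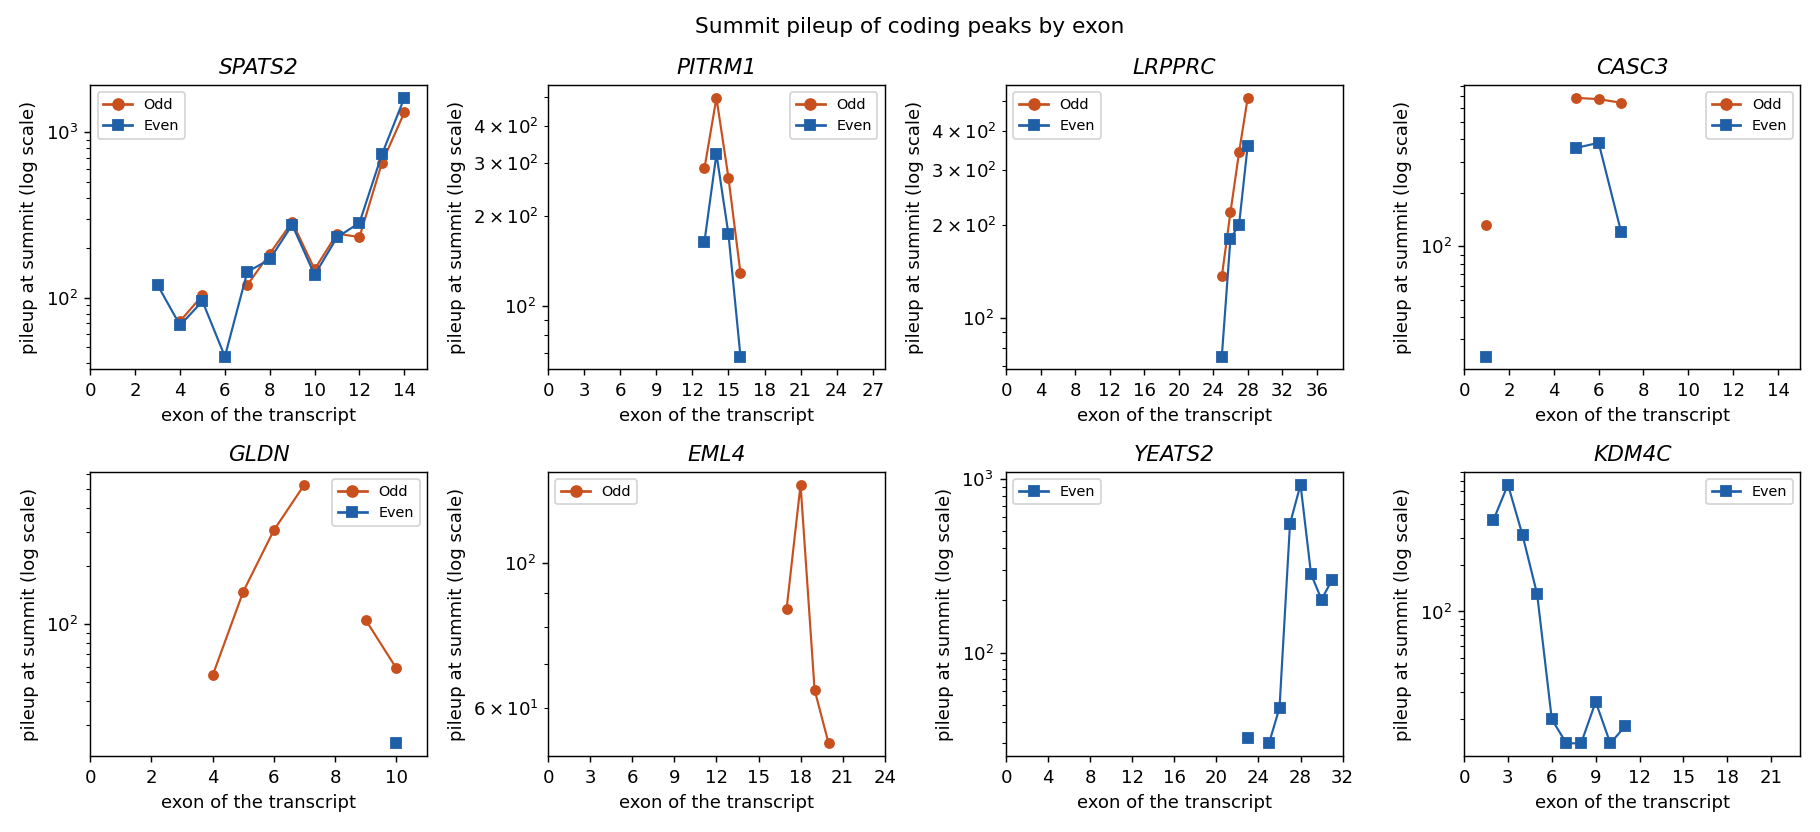
Pileup at the summit (y axis, log scale, extended tags, Even as scaled by MACS) of each coding peak by exon of the transcript (x axis), for 8 genes. Odd is in orange circles, Even in blue squares, and lines join neighbouring exons. SPATS2, PITRM1 and LRPPRC have runs in both lists, highest in the same exon, EML4 has Odd peaks only, and YEATS2 and KDM4C have Even peaks only.

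In several genes the peak of highest pileup also had the longest sense run of SNHG5 letters in its window. In YEATS2 exon 28 the match was 15 bases and in KDM4C exon 3 also 15, while no other coding peak of these genes exceeded 12 and 10. NTN4 exon 10 held the 17-base match printed above and a pileup of 124, beside 9 bases and a pileup of 23 in exon 9. CANX exon 7 and NUP188 exon 20 each held 13 bases, and CSNK2A2 had 12 at the edge of exon 3. Among genes with at least 3 peaks in exons of the transcript used for numbering, the peak of highest pileup had a match at least as long as every other peak of the gene in 11 of 19 Odd and 18 of 25 best Even genes, ties included. Without ties the counts were 9 and 13. Over all Even peaks the count was 57 of 100 genes with ties and 36 without. The median match was 10 bases at the peak of highest pileup in Odd and in best Even. The longest match among the other peaks of a gene had a median of 10 in Odd and 9 in best Even. No share expected without a relation was computed. EML4, with 13 bases at exon 17 but its highest pileup in exon 18, and PTK2, with 12 bases at exon 20 and 10 at exon 25, were exceptions. In SPATS2 the longest match, 12 bases, was at exon 12.

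Exons with a peak were longer than the other coding exons of the same genes in the Odd and best Even lists. The median length was 169 bases in Odd (interval of the median 153 to 183), beside 133 for the other exons (130 to 135). In best Even it was 155 bases (144 to 176), beside 131. With as many Even peaks taken by largest fold instead of p-value, it was 133 bases (108 to 153), so the difference in Even was not seen with that choice. All annotated coding exons had a median of 134 bases, but a coding base drawn from anywhere lies in an exon with a median length of 203 bases. Exons over 1000 bases held 51 Odd coding peaks (17.6%) and 29 best Even coding peaks (11.2%). Such exons were 4.04% and 3.48% of the other exons of these genes, and 25.01% of all coding bases lie in them. Exons with a peak were thus longer than exons counted one by one and shorter than exons weighted by their bases.

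Peaks occurred along the whole coding sequence. The summit lay at a median of 49.6% of the coding length in Odd and 48.5% in best Even. Internal exons held 226 Odd coding peaks (78.2%), last coding exons 35 (12.1%, 8.84% to 16.4%), first coding exons 23 (7.96%) and single coding exons 5 (1.73%). In best Even, 211 (81.5%) were internal, 23 (8.88%, 5.99% to 12.97%) in the last and 20 (7.72%) in the first coding exon. Last exons were 4.96% of the other exons of the Odd genes and 5.28% in best Even, 9.05% of all coding exons, and hold 14.7% of all coding bases. The shares of peaks in last exons lay above the first of these values, while the interval of each list included the share of all coding exons. First exons were 5.25% of the other exons of the Odd genes and 5.44% in best Even.

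The peaks were wider than the exons beneath them. Median peak length was 519 bases in Odd and 609 in best Even, and the exon lay wholly inside the peak in 196 Odd (67.8%) and 210 best Even coding peaks (81.1%). For exons under 300 bases this was so in 190 of 207 (91.8%) and 201 of 210 (95.7%). The summit lay a median of 27.5 and 31 bases from the centre of the exon. The peak ends ran past the exon by a median of 185 and 213 bases in Odd and 229 and 252 in best Even. MACS extended each tag to 260 bases in Odd and 290 in Even. This extension runs along the genome and does not follow splicing.

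Pileup was higher and fold enrichment lower in coding sequence than in introns. The median Odd coding peak had a pileup of 115 and a fold enrichment of 11.65 (interval 10.56 to 13.1), beside 53 and 46.73 for intronic Odd peaks. Peaks in 3′UTRs were close to the coding ones, with 96 and 11.6. Best Even gave a pileup of 160 and a fold enrichment of 15.21 (13.69 to 17.85) in coding sequence, 75 and 67.6 in introns and 154 and 16.54 in 3′UTRs. The local background that these values imply, pileup divided by fold, had a median of 9.84 in Odd coding peaks and 1.23 in Odd introns, and of 10.98 and 0.986 in best Even. Coding peaks in exons of at least 300 bases had median folds of 11.275 in Odd and 12.75 in best Even, and those in shorter exons 11.78 and 15.82.

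Large fold enrichments in coding sequence came from a few exons. In Odd, GLDN exon 6 (chr15:51689460-51690042) reached 647.85 at a pileup of 306, and exons 5, 9, 4 and 7 of the gene reached 311.22, 149.18, 114.33 and 85.82. GOLGA1, a golgin of the trans-Golgi, had 247.71 in exon 6 at a pileup of 117. RPGRIP1L, a protein of the ciliary transition zone, had 130.02 in exon 6, SLC27A2 127.03 in exon 7, NTN4 100.77 in exon 10 and ZNF749, a zinc finger protein, 81.27 in exon 1. In GLDN exons 4, 5, 6 and 9, GOLGA1 exon 6 and SLC27A2 exon 7 the fold exceeded the pileup, which implies a local background below 1 tag. Such folds depend on a near-empty control.

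In best Even, ZMYND8, a chromatin reader, had the largest fold, 506.82 at a pileup of 216 in exon 17 (chr20:45858233-45858832), while the neighbouring exons 16 and 18 had 19.01 and 32.45. PLEKHA5 exon 1 followed with 251.04, then ZNF837 exon 3 with 217.88, and EXOC6B exon 15, of a subunit of the exocyst, and KDM4C exon 2, both with 194.68. SMC5 exon 10, of the SMC5/6 complex of chromosome maintenance, had 184.54. CSNK2A2 exon 4 had 151.04, CCDC102A exon 8 135.19, KDM4C exon 3 132.62 and NLRP1 exon 4, of an inflammasome sensor, 125.87. In CSNK2A2 and ZMYND8 the exon of largest fold was not the exon of highest pileup. Of the best Even exons listed here, all except exons 2 and 3 of KDM4C had a fold above their pileup. This implies a local background below 1 on the scale of the Even pileup, so these folds too depend on a near-empty control.

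In 4 coding peaks the pileup reached over 50% of the limit set by duplicate removal. AKAP12 exon 4, of a kinase anchoring protein, reached 1558 in Odd, the highest coding pileup of that list, at a fold enrichment of only 2.03. HSPA5 exon 8, of a chaperone of the endoplasmic reticulum, had 823 and a fold of 3.43. SPATS2 exon 14 had 1313 in Odd and 1608 in Even. How far the limit lowered these values was not tested. AKAP12 and HSPA5 were singled out after their values had been seen.

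Between the lists, overlap in coding sequence was no more frequent than elsewhere. Of the 289 Odd coding peaks 29 were overlapped by a best Even peak (10.0%), beside 13.1% of all Odd peaks. Of the 259 best Even coding peaks 29 were overlapped by an Odd peak (11.2%, 7.91% to 15.6%), beside 13.3% of all best Even peaks. Without SPATS2, PITRM1 and GLE1, which was computed after the data had been seen, the best Even share was 6.88%.

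Overlapping coding peaks had summits close together. The 90 Odd coding peaks with an Even partner lay in 60 genes, and the Even summit was in the same exon for 79 of them (87.8%). The median distance between the summits was 17 bases (quartiles 5 and 52.5), and 66 pairs were within 50 bases. For the 29 with a best Even partner, in 15 genes, the median distance was 12 bases and 26 were in the same exon. SPATS2 supplied 8 of the 29, and PITRM1, LRPPRC and CASC3 3 each. ZNF335 supplied 2, and ZNF749, RPGRIP1L, CPNE1, WASHC3, THOC2, RNF113A, ZFYVE27, BPTF, COX15 and SON 1 each.

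Fold enrichments in both pools are given side by side, since the lists share their control libraries and are therefore not independent. Among the 29, the Odd fold was the larger in 16 and the Even fold in 13. RPGRIP1L exon 6 had 130.02 in Odd and 44.61 in Even, the largest value of the smaller fold. ZNF749 exon 1 had 81.27 and 37.18, with the Even summit in the 5′UTR, and WASHC3 exon 7, of the WASH complex of endosomes, 42.26 and 18.25, with the Even summit in the 3′UTR. SPATS2 exons 10 and 11 had 30.07 and 17.95 in Odd and 34.47 and 21.02 in Even. ZNF335 exon 12, of a zinc finger transcription regulator, had 25.46 and 23.76, and CPNE1, of a calcium-dependent phospholipid-binding protein, 15.16 at an Odd summit in exon 5 and 16.01 at an Even summit in exon 6. PITRM1 exons 13, 14 and 15 had 21.28, 23.66 and 18.15 in Odd and 14.93, 18.97 and 13.42 in Even. Over all 90 pairs the Odd fold was the larger in 72. In 61 of these pairs the Even partner ranked below the best Even peaks, and the Odd fold was the larger in 56 of them. Only the Odd list was filtered for reproducibility, so weaker peaks could enter as Even partners. The counts over all pairs and over these 61 therefore do not compare the pools.

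**Figure D3:**
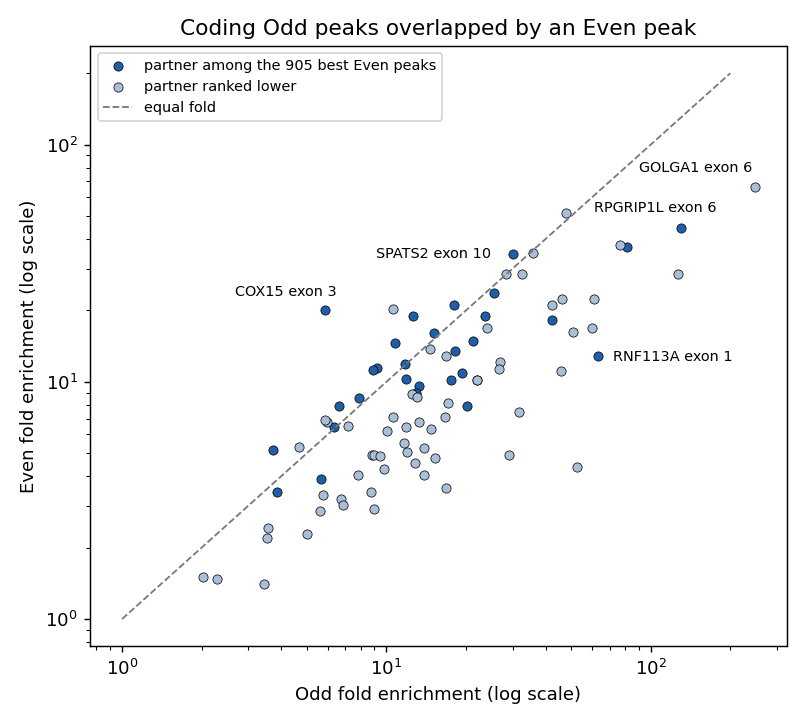
Even against Odd fold enrichment (both axes log scale) of the 90 Odd coding peaks overlapped by an Even peak. Dark points have a partner among the best Even peaks, light points a partner of lower rank, and the dashed line marks equal fold. 72 points lie below the line, and the dark points are spread on both sides of it, 16 below and 13 above. Weaker peaks could enter as Even partners than as Odd peaks, since only the Odd list was filtered for reproducibility.

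Sense runs were present with and without a partner. The 199 Odd coding peaks with no Even peak, in 153 genes, had a median fold of 10.65, a median pileup of 110 and a sense run of at least 10 bases in 48.2%. The 230 best Even coding peaks with no Odd peak, in 147 genes, had a median fold of 15.82 and a sense run in 39.1%. The 90 Odd coding peaks with a partner had a sense run in 46.7%, and the 29 best Even coding peaks with a partner in 51.7%.

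Of the other transcripts examined in the study, few had many coding peaks. GLE1, an mRNA export factor, had 1 Odd coding peak, in exon 1 with a pileup of 167 and a fold of 33.93, and no Even coding peak. ZNF335 had Odd pileups of 87 in exon 10 and 188 in exon 12 and Even pileups of 24, 70 and 166 in exons 9, 10 and 12. COX15, an enzyme of haem A synthesis, had an Odd pileup of 65 in exon 3 and Even pileups of 34, 196 and 180 in exons 1 to 3. PECR, a peroxisomal reductase, had 1 Even coding peak, with a pileup of 6. No coding peak was found in IRX4, SOCS6, DELE1 or GAPDH, and SNHG5 itself has no annotated coding sequence.

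Few coding peaks fell in any 1 gene family, and each share is set beside the family's share of coding bases. C2H2 zinc finger genes, which hold 3.34% of coding bases, had 7 Odd (2.42%) and 7 best Even (2.70%) coding peaks, among them ZNF749, ZNF335 and ZNF837. Solute carriers, with 1.80% of coding bases, had 8 Odd coding peaks in 4 genes (2.77%), led by SLC27A2, and 0 best Even coding peaks, which allows a share of up to 1.16%. Ubiquitin ligases and proteases, with 1.94% of coding bases, had 4 Odd (1.38%) and 9 best Even coding peaks (3.47%), and RNF113A, a zinc finger E3 ligase, had 1 in each. Chromatin regulators, with 1.22% of bases, had 3 (1.04%) and 7 (2.70%), with KDM4C supplying 4 of the 7. RNA helicases and splicing factors, with 0.914% of bases, had 4 (1.38%) and 6 (2.32%). Several peaks of 1 gene are counted separately in these shares. Ribosomal proteins, olfactory receptors, and mucins and keratins, with 0.198%, 1.15% and 0.710% of coding bases, had 0 in Odd and in best Even. The limits are 1.04% and 1.16%. Apart from olfactory receptors in Odd, these limits lie above the shares of bases, so the counts of 0 do not set the families apart. The whole Even list had 3, 1 and 2 such peaks. The remaining 5 families had at most 2 in each.

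Coding peaks in copied sequence were few. In 9 Odd coding peaks (3.11%) at least 50% of the 48-base sequences occurred elsewhere in the genome, and no best Even coding peak reached this. They lay in CEP170, SHLD2, CKMT1B, NOMO1, NOMO3, FAM86B1 and FAM86B2, with 1 each, and in NOMO2 with 2, which were named after their values had been seen. NOMO1, NOMO2 and NOMO3 are near-identical copies, with folds between 3.02 and 3.59, so the gene of origin of these 4 peaks is uncertain.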

How the data were processed

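Per the methods and the file headers, the authors used cutadapt for trimming, STAR for mapping to hg19 and MACS 2.0.9, at p 0.001 and against the pooled control, for peak calling. IDR, a filter for reproducibility, was applied to Odd only, since an Even replicate had failed. The deposited pileup is a coverage signal and the deposited fold enrichment a ratio to the local background. The deposited −log10 p-value was used to rank Even peaks and, for an alternative, Odd peaks, and to describe how weak listed peaks were. The q columns were not used. 0 columns of other samples were present. Mapping steps can affect peaks at exon borders and in copied sequence.

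Summits were placed on GRCh37 by GENCODE 44 gene models (lifted to that build), with Python 3.11.15, numpy 2.4.6, pandas 2.3.3, scipy 1.17.1, pysam 0.24.0, samtools 1.23.1 and matplotlib 3.10.9. The lists give no strand, so strand was taken from the gene. Overlap meant at least 1 shared base. The placing of summits, the matching and the Wilson intervals were tested on simulated data. No test between groups was possible with 1 list per pool.

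Genes named are the study's transcripts, the 10 genes with most coding peaks and the 10 coding peaks of largest fold per list, shared peaks and family examples, and genes outside this rule are marked where they appear or, at the printed sequences, were chosen for their matches. Members and lists were chosen with earlier results of these data known.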

Additional observations from a re-analysis of the deposited data

How the results depend on the processing

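Of 71 alternative values for 13 results, 49 stayed within the interval of the reported value, or within 1.5 times a count, and 22 did not. With any overlap of the peak with coding sequence, 125 genes were shared in place of 77, and with only the best Even peaks 16 genes were, while 10.03% of Odd coding peaks were then overlapped. With all Even peaks, 1819 were coding, 5.113% were overlapped by an Odd peak, the median fold was 6.99 and 33.1% held a sense run. With an equal number of Even peaks taken by largest fold, 96 were coding, 6.25% were overlapped, the median exon length was 133 bases and the median fold 43.25. The share with a sense run, for Odd and best Even in turn, was 78.55% and 72.2% for runs of at least 9 bases, 13.15% and 9.653% for 12 bases, 36.33% and 27.8% within 100 bases of the summit, 32.53% and 21.62% on the complementary strand, and 63.67% and 60.62% in the spliced window. Without SPATS2, PITRM1 and GLE1, 6.883% of best Even coding peaks were overlapped. The spliced window and the alternatives without copied peaks or without these genes were chosen after seeing the data. The cause of the changes was not tested, apart from those set by a longer list or a longer run. No paired analysis was possible because per-replicate values were not in either list, and for the same reason no replicate could be left out. The Even list rests on 1 library of 1965614 kept tags, which limits weak Even peaks.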
